A study of Mus musculus with 30 samples.

Results

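Vincristine was compared with saline on day 8 in the lumbar dorsal root ganglia of mice. The comparison takes 6 of the 30 libraries of the series, chosen by their labels: 3 from male wild-type C57BL/6J mice given vincristine and perfused on day 8, and 3 from male wild-type C57BL/6J mice given saline and perfused on the same day. The other libraries come from the same strain, sex and genotype. On day 8 they hold cyclophosphamide, doxorubicin, dexamethasone and CVAD, which combines these 4 drugs, and on day 2 they hold saline, CVAD, cyclophosphamide and dexamethasone, with 3 libraries in each group. Vincristine has no day 2 group. Dose, number of injections and the age of the mice are not given in the sources used here. The p-values below set differences against the spread between libraries within groups, taken over all 30 libraries and moderated across genes. The labels do not say whether each library is 1 mouse, so whether that is a spread between mice is not known.

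The cell bodies of sensory neurons lie in these ganglia, wrapped by satellite glia and joined by Schwann cells, macrophages and capillaries. Vincristine binds tubulin, stops microtubules from growing, and is known in the clinic for damaging long sensory axons. The ganglia are not behind a tight blood-nerve barrier, so both the drug and blood-borne cells can reach them.

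Expression is given as TPM, the share of a gene among all transcripts, scaled for gene length and library. A log2 fold change is always that of TPM + 1, vincristine minus the group named, and is given ± SE from a model fitted across all genes of the 30 libraries. This scale understates the change of genes with few TPM. Of 56686 genes in the table, 25434 had at least 1 TPM in at least 3 libraries and were tested. All 23 nociceptor genes and all 18 genes of myelinating Schwann cells were above the filter. So were all 19 skeletal muscle genes, and passing the filter therefore does not test the tissue label. The 6 libraries had 25404 to 27673 genes above 0. Protein-coding genes took 64.3% to 73.8% of the TPM in vincristine and 66.6% to 69.6% in saline. Pearson's r of log2 values across genes was 0.963 to 0.970 for the 6 pairs within a group and 0.962 to 0.968 for the 9 pairs between them, so libraries of different groups were about as alike as libraries of the same group.

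No gene passed an adjusted p of 0.05 against saline in limma with Benjamini-Hochberg adjustment (0 of 25434, 0.0%), and the smallest adjusted p was 0.125. At an unadjusted p under 0.05 there were 876 genes (3.44% of those tested), 518 higher with vincristine (2.04%) and 358 lower (1.41%). With the libraries scaled by median ratios these became 523 higher and 559 lower, so the excess of higher genes rests on the scaling. The log2 fold change was above 0 for 54.7% of all tested genes and below 0 for 44.3%, and its median was 0.016. Counts of higher or lower list members against saline stand beside these shares. No such share is given for the other references. The lists and their members were chosen with earlier results of these data known. Counts of list members therefore describe the lists and do not test them. The median SE was 0.19 over all tested genes, and 0.12 over the 13338 genes with a mean of at least 10 TPM. Groups did not overlap for 1571 genes (6.18%), 879 genes higher with vincristine (3.46%) and 692 lower (2.72%). Values below are therefore descriptions of single genes and lists, with the SE or 95% interval from limma, and p under 0.05 always means unadjusted, since no named gene passed against saline. The choice of library left out also changes the split, which was 254 higher and 479 lower without saline library 2, and 940 higher and 252 lower without vincristine library 1.

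Promoter sequences of 9 genes named below or in the same lists were read, each 150 bases ending just before the transcription start, from the RefSeq annotation of GRCm38.p6. Printed are 5 that hold the letters marked here, chosen for that, and Mpo, which does not. Ctsg and Clec1b hold none of the motifs in this window, and Ifi44 holds GAGGAA and no GAAANNGAAA. The first pair are neighbours that encode serine proteases of granulocyte precursors, and the third is the beta tubulin of platelets, all with lower means in vincristine than in saline. Capitals mark GAGGAA, the core letters bound by the myeloid factor PU.1. They stand at chr10:79886162-79886311, chr10:79879517-79879666 and chr2:174450445-174450594, and Mpo at chr11:87793634-87793783, each on the plus strand.
Elane: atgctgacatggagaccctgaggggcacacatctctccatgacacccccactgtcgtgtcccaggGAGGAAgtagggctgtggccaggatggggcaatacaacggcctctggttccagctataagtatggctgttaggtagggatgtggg
Prtn3: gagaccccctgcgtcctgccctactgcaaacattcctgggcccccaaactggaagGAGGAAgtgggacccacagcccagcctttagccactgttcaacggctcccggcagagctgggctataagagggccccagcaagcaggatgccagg
Tubb1: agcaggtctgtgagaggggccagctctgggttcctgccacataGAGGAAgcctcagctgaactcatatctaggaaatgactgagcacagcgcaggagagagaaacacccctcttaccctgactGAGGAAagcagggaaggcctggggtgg
Mpo: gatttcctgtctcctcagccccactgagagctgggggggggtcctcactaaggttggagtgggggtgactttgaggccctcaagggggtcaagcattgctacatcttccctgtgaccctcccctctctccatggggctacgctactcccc

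The next pair are interferon-induced genes, with higher means in vincristine than in the other single drugs. Capitals mark GAAANNGAAA on either strand, the letters of an interferon-stimulated response element, and matches that overlap run together. They stand at chr4:156200819-156200968 on the minus strand and chr19:34640739-34640888 on the plus strand.
Isg15: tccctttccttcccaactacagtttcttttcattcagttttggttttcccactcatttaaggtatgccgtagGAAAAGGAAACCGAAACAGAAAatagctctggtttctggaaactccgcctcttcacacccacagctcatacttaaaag
Ifit1: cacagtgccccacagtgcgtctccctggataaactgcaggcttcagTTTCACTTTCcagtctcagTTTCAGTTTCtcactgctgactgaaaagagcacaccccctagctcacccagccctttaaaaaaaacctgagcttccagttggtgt

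Over 250 bases upstream and both strands, GAGGAA was found in 25.9% of 27025 promoters, in 4 of 5 granulocyte precursor genes, in 8 of 14 maturing neutrophil genes, in 7 of 14 platelet genes and in 9 of 20 interferon-induced genes. GAAANNGAAA was found in 3.46% of all promoters and in 12 of the 20 interferon-induced genes with an entry. AGATAA, the letters of a GATA site, was found in 11.4% of all promoters and in 2 of 14 platelet genes. These are matches of letters and say nothing of binding in these samples.

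Granulocyte genes had lower means with vincristine than with saline. In bulk tissue, fewer cells of a type and less RNA per cell cannot be told apart. Elane, neutrophil elastase, was at 2.64, 7.34 and 8.55 TPM after vincristine against 13.2, 19.2 and 27.1 in saline. The groups did not overlap, and the log2 fold change was −1.60 ± 0.40 (95% interval −2.43 to −0.77). Mpo, myeloperoxidase of the same granules, was at 6.30, 13.1 and 13.6 TPM after vincristine against 15.2, 27.8 and 39.2 in saline (−1.21 ± 0.41). Ctsg, cathepsin G, was at 1.41, 2.58 and 3.59 TPM against 4.88, 6.47 and 9.02 (−1.16 ± 0.46). Prtn3, proteinase 3, was at 4.71, 9.46 and 14.7 TPM against 10.5, 20.8 and 23.9, which overlap (−0.91 ± 0.37). In Elane, Mpo, Ctsg and Prtn3 vincristine library 1 was the lowest and saline library 1 the lowest of its group.

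Of 5 granulocyte precursor genes, 4 had a lower mean, the same 4 with an unadjusted p under 0.05 (1.41% of all genes lower). The list's median log2 fold change was −1.16. Without vincristine library 1 (0.991% of all genes lower) or without saline library 3 (1.5%), 1 gene was lower at such a p. The fifth, Ms4a3, a marker of granulocyte and monocyte precursors, was at 19.8, 22.8 and 16.2 TPM after vincristine against 16.6, 22.4 and 16.3 in saline. Of the 15 genes of maturing neutrophils, 13 were tested and all 13 had a lower mean, with a median of −0.68. An unadjusted p under 0.05 went with 6 of them (1.41% of all genes lower). Without vincristine library 1 the median was −0.39 and 0 genes were lower at such a p (0.991% of all genes). S100a8 and S100a9, calprotectin subunits abundant in neutrophils, were listed at 0 and not tested.

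Platelet genes were also lower in mean with vincristine, in a list added after its leading genes had been seen. Tubb1, the beta tubulin isotype of platelets and megakaryocytes (chromosome 2, 174292488 to 174299675 in the table's coordinates), was at 2.15, 1.90 and 2.61 TPM after vincristine against 6.04, 5.81 and 5.29 in saline. Its groups lay far apart for their spread, with a log2 fold change of −1.06 ± 0.32. Clec1b, the podoplanin receptor CLEC-2 of platelets, was at 0.223, 0.211 and 0.185 TPM against 1.31, 2.00 and 2.35 (−1.24 ± 0.32). Ppbp, a chemokine stored in platelet granules, was at 7.45, 9.02 and 10.8 TPM against 22.6, 38.5 and 17.3 (−1.36 ± 0.48).

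Alox12, the platelet 12-lipoxygenase, had a log2 fold change of −0.85 ± 0.25, and its groups met at 4.56 TPM. Alox5, the 5-lipoxygenase of leukocytes that starts leukotriene synthesis, was at 1.62, 3.53 and 4.32 TPM against 6.03, 5.58 and 7.56 (−0.88 ± 0.28). Plac8, a gene of granulocytes and other leukocytes, was at 4.28, 5.94 and 12.4 TPM against 19, 16.1 and 21.3 (−1.32 ± 0.48). Of the 18 platelet genes 17 were tested, 16 with a lower mean, and the median was −0.76. Of the 16, 8 had an unadjusted p under 0.05 (1.41% of all genes lower). Those 8 became 4 without saline library 2 (1.88% of all genes lower) and 5 without vincristine library 2 (1.7%). The median was −0.50 without vincristine library 1. The abundant platelet genes Pf4 (platelet factor 4) and Itga2b (integrin alpha IIb) were within 0.1 of no difference, at −0.08 ± 0.21 and −0.06 ± 0.18.

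The saline libraries of day 8 stood above other groups of the series too. For Tubb1 and Plac8 none of the other 27 libraries of the series reached the lowest saline library of day 8, and 2 of 27 did for Elane and Clec1b. The mean log2 level of the granulocyte precursor genes was 2.58, 3.34 and 3.48 in vincristine and 3.61, 4.21 and 4.44 in saline of day 8. In CVAD of day 8, which holds vincristine with the other drugs, it was 2.81, 2.19 and 2.66. Saline of day 2 averaged 6.15 TPM of Elane and 1.93 of Tubb1. Against saline of day 2 the log2 fold change of vincristine was −0.06 for Elane, 0.16 for Tubb1, 0.21 for Mpo and 0.62 for Ppbp. List medians against saline of day 2 were 0.23 for granulocyte precursors, 0.31 for maturing neutrophils and 0.12 for platelets, beside 0.084 over all tested genes. These comparisons share the vincristine libraries with those above, and the day differs.

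**Figure D1:**
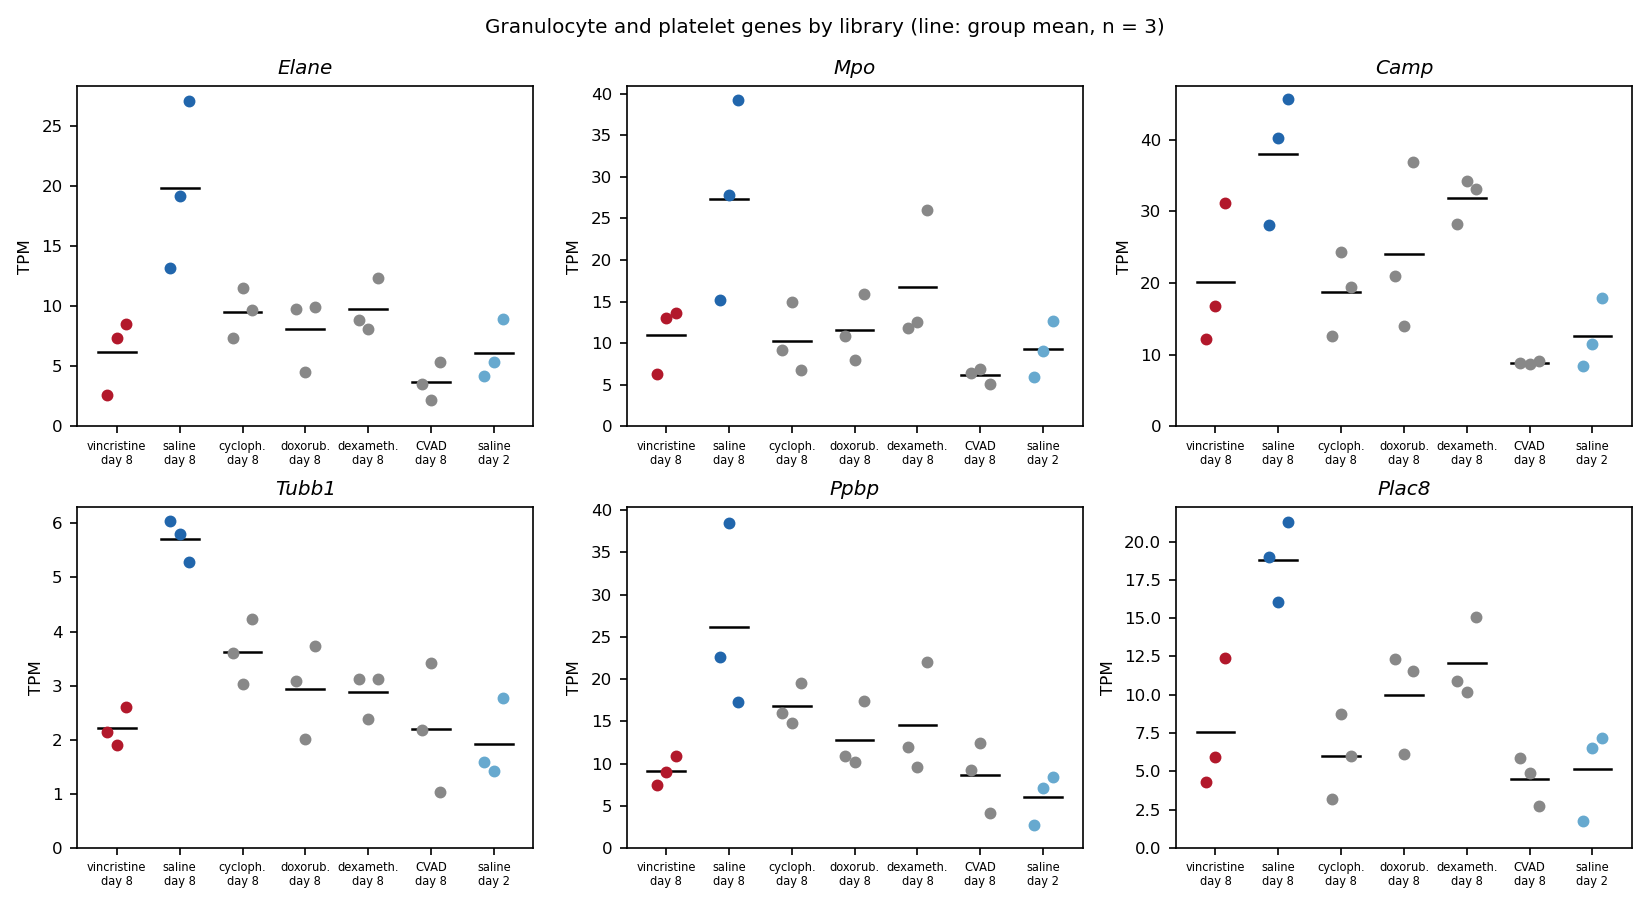
TPM of 6 genes in 21 libraries, 3 for each of the 6 groups of day 8 and for saline of day 2, with 1 point a library and a black line at the group mean. For Tubb1 and Plac8 the 3 saline points of day 8 lie above all other points drawn, and the vincristine points lie among those of the other drugs.

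A direct comparison of vincristine with the mean of cyclophosphamide, doxorubicin and dexamethasone on day 8 uses no saline library. Here 1 of 25434 genes passed the adjusted p (0.00393%), and 943 had an unadjusted p under 0.05 (3.71%), 755 higher (2.97%) and 188 lower (0.739%). It shares the vincristine libraries with the comparison above. With median-ratio scaling those were 498 higher and 429 lower. The median over all tested genes was 0.046. Elane was at −0.58 ± 0.33, Mpo at −0.18 ± 0.34 and Ctsg at −0.48 ± 0.38, and none of the 3 had an unadjusted p under 0.05. List medians were −0.18 for granulocyte precursors, −0.23 for maturing neutrophils and −0.19 for platelets, with 0, 0 and 2 genes lower at an unadjusted p under 0.05. At such a p 1 platelet gene was higher. The medians of granulocyte precursors and maturing neutrophils turned on single libraries, at 0.02 and 0.05 without vincristine library 1. The platelet median stayed below 0 with each library left out in turn. It ran from −0.44 without vincristine library 3 to −0.11 without vincristine library 1. That list was added after its leading genes had been seen against saline, with the same vincristine libraries.

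The gene that passed was Gm13913, a processed pseudogene on chromosome 2 (108408475 to 108408734). It was at 1.25, 2.04 and 1.55 TPM in vincristine and listed at 0 in all 3 saline libraries of day 8 and in saline of day 2, and the highest of the other 27 libraries was at 1.14. Its adjusted p was 0.0235 against the other single drugs and 0.125 against saline. A pseudogene can take reads from its parent gene, which was not tested. With each of the 12 libraries of that comparison left out in turn, Gm13913 passed in 2 fits, those without cyclophosphamide library 2 or doxorubicin library 3, and without vincristine library 1 or 2 another gene passed in its place.

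Most interferon-induced genes had higher means with vincristine than with each reference, by an amount that depended on the reference. These genes are switched on by type I and type II interferons and encode antiviral proteins. Against saline of day 8, 23 of 29 had a higher mean, 4 with an unadjusted p under 0.05 (2.04% of all genes higher). The median log2 fold change was 0.16. That median was 0.06 without vincristine library 1, 0.07 without saline library 2, 0.30 without vincristine library 2 and 0.35 without saline library 1. The 4 genes became 1 without vincristine library 1 (3.70% of all genes higher), saline library 2 (0.999%) or saline library 3 (2.62%). They became 2 without vincristine library 3 (1.51%). Without saline library 3, 1 gene of the list was also lower at such a p (1.5% of all genes lower). Against the other 3 single drugs, all 29 had a higher mean, 18 with such a p (2.97% of all genes higher). The median there was 0.46, beside 0.046 over all tested genes. Against saline of day 2, where 6.43% of all genes had such a p, 5.46% higher and 0.971% lower, all 29 had a higher mean, 19 with such a p, and the median was 0.51. None of the 29 passed an adjusted p of 0.05 in any of these comparisons.

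Isg15, a ubiquitin-like protein joined to others after interferon, shows this order of references. It was at 34.2, 23.2 and 31.7 TPM in vincristine, at 23.2, 24 and 15.9 in saline, and averaged 12.7 in cyclophosphamide, 19.2 in doxorubicin, 17 in dexamethasone and 12.3 in saline of day 2. Vincristine overlapped saline of day 8 in 1 library and lay near or above the others. The log2 fold change was 0.48 against saline and 0.86 ± 0.24 against the other drugs. Mx1, a GTPase that blocks viruses, was at 5.51, 5.0 and 3.42 TPM after vincristine against 4.25, 2.07 and 2.81 in saline, and averaged 2.27, 2.50 and 2.27 in cyclophosphamide, doxorubicin and dexamethasone (0.74 ± 0.22 against these drugs). Zbp1, a sensor of Z-form nucleic acid, was at 7.83, 3.14 and 6.61 TPM after vincristine against 7.48, 2.94 and 5.05 in saline (0.15 against saline). It averaged 1.54, 3.51 and 2.78 in the other drugs, 0.95 ± 0.28 below vincristine.

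Some antiviral genes had smaller differences. Rsad2 (viperin) was at 0.21 against the other drugs and 0.01 against saline, and Ifi27 was at 0.07 and −0.00. Ifit1, an antiviral RNA-binding protein, was at 40.7, 24.5 and 27 TPM after vincristine against 27, 25.1 and 19.9 in saline, and at 0.42 ± 0.18 against the other drugs. Stat2, a transcription factor through which interferon receptors signal, was at 0.14 against the other drugs and at −0.09 against saline. Irf9, its partner, was at 39.9, 32.7 and 38.6 TPM after vincristine against 39.4, 33.8 and 35.5 in saline. Gbp2, a guanylate-binding protein that responds to interferon gamma, was at 24.1, 23 and 21 TPM against 46.5, 27.2 and 18.4 in saline, whose library 1 was the highest of the series.

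The spread between libraries bears on this list. The mean log2 level of its 29 genes was 4.46, 4.14 and 4.35 in vincristine and 4.37, 3.94 and 4.03 in saline of day 8, so saline library 1 lay among the vincristine libraries. In cyclophosphamide it was 3.53, 3.89 and 3.73, in doxorubicin 4.27, 3.77 and 3.82, and in dexamethasone 3.99, 3.84 and 4.02. In CVAD of day 8, which holds vincristine with the other drugs, it was 4.04, 4.09 and 3.81, with each library below the lowest vincristine library. Against the other drugs, without vincristine library 1, all 29 genes kept a higher mean and 9 had an unadjusted p under 0.05 (5.33% of all genes higher), with a median of 0.34. Without vincristine library 3 these were 28 and 11 genes (1.80% of all genes higher). With median-ratio scaling they were 29 and 17 (1.96% of all genes higher), and against saline 20 and 4 (2.06%).

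**Figure D2:**
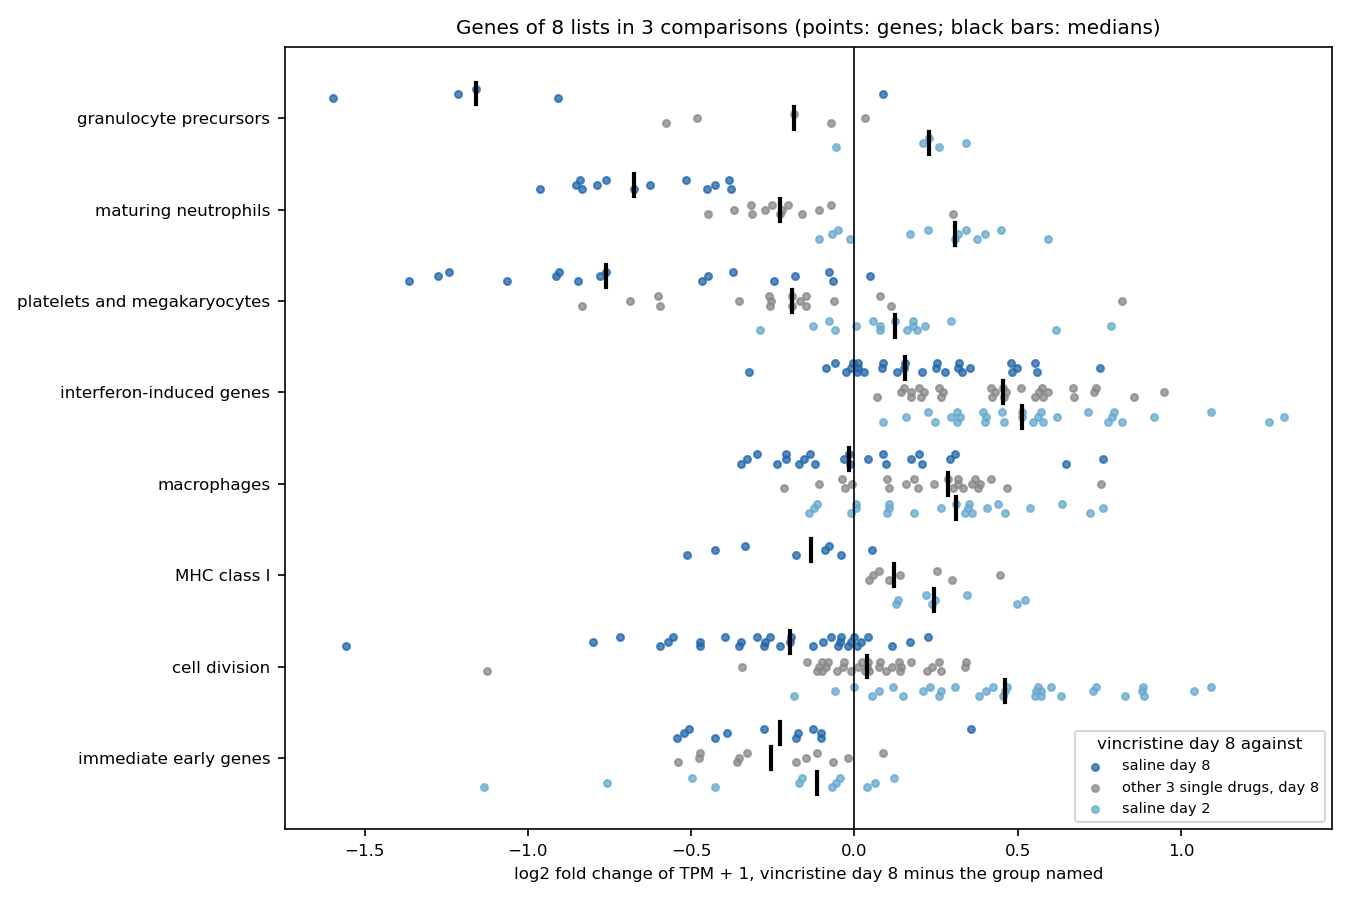
Log2 fold changes of TPM + 1 for the tested genes of 8 lists, as vincristine of day 8 minus saline of day 8, minus the mean of the other 3 single drugs of day 8, or minus saline of day 2, with 1 point a gene and a black bar at each median. Medians of granulocyte precursors lie at −1.16, −0.18 and 0.23, those of maturing neutrophils at −0.68, −0.23 and 0.31, those of platelet genes at −0.76, −0.19 and 0.12, and those of interferon-induced genes lie at 0.16, 0.46 and 0.51.

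Macrophage genes followed the same order of references. Against saline, 10 of 23 had a higher mean, 1 with an unadjusted p under 0.05 (2.04% of all genes higher). The median was −0.02 (−0.14 to 0.08 with 1 library left out). Against the other drugs, 18 of 23 had a higher mean, and the median was 0.29, beside 0.046 over all tested genes. There 7 were higher at such a p (2.97% of all genes), and 4 with median-ratio scaling (1.96%). Adgre1, the F4/80 antigen of tissue macrophages, was at 37.6, 16.9 and 16.1 TPM after vincristine against 18, 10.7 and 12.9 in saline (0.65 ± 0.23). Vincristine library 1 was the highest of the series for it, the other vincristine libraries overlapped saline, and without library 1 the log2 fold change was 0.27. Against the other drugs Adgre1 was at 0.76 ± 0.19.

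The 3 chains of complement C1q, made by macrophages, differed by less. C1qb was at 58.9, 50.7 and 56.3 TPM in vincristine, at 57.3, 42.0 and 46.0 in saline, and averaged 39.9, 40.8 and 43.4 in cyclophosphamide, doxorubicin and dexamethasone. C1qa and C1qc were at 0.33 ± 0.13 and 0.36 ± 0.12 against the other drugs, and at 0.17 and 0.10 against saline. Csf1r, the receptor that macrophages need to survive, was at 0.11 ± 0.10 against the other drugs, and Cd68, a lysosomal protein of macrophages, at 0.25 ± 0.19. Cx3cr1, the fractalkine receptor, was at 14.6, 15.2 and 17.7 TPM in vincristine against 14.9, 10.8 and 12.2 in saline.

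**Figure D3:**
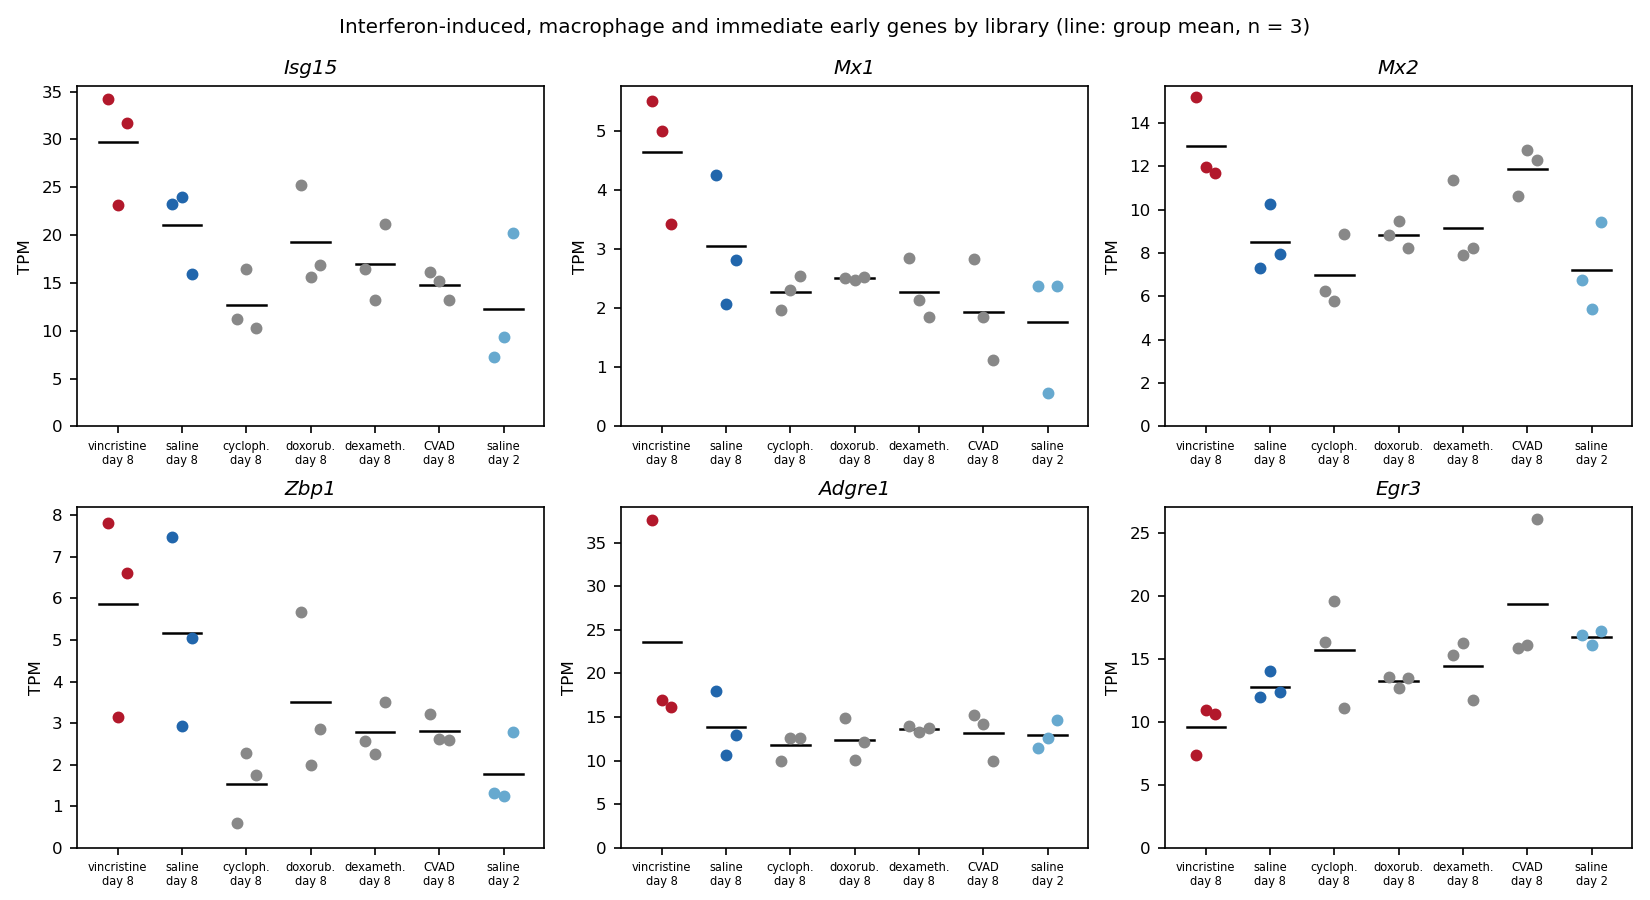
TPM of 4 interferon-induced genes, the macrophage gene Adgre1 and the immediate early gene Egr3 in 21 libraries, with 1 point a library and a black line at the group mean. Vincristine points of Isg15, Mx1 and Mx2 lie at or above most of the others, Zbp1 is high in both vincristine and saline of day 8, and Adgre1 has 1 vincristine library at 37.6 TPM.

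Antigen presentation genes were lower in mean with vincristine than with saline and higher than with the other drugs. Of 8 MHC class I genes, 7 had a lower mean against saline (median −0.13). All 8 had a higher mean against the other drugs (median 0.12, beside 0.046 over all tested genes). That was 7 of 8 with median-ratio scaling, and 6 of 8 with a median of 0.04 without vincristine library 3. Tap1, the peptide transporter that loads class I molecules, was at 18.7, 18.4 and 20.02 TPM after vincristine against 29.4, 22.1 and 22.1 in saline, where no other library of the series reached the saline values (−0.34 ± 0.17). Psmb9, an immunoproteasome subunit, was at 5.96, 11.2 and 11.5 TPM against 16, 12.9 and 12.1. Ptprc, the leukocyte antigen CD45, was at 20.2, 21.2 and 18.7 TPM against 29.1, 24.5 and 23. Of 9 tested T and NK cell genes, 7 had a lower mean against saline, with a median of −0.32 that was −0.11 without saline library 1 and −0.55 without saline library 2, and the natural killer receptor gene Klrd1 was at 1.45, 0 and 0 TPM against 3.35, 2.12 and 1.09.

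Among cytokines, Tnf was at 2.26, 0.685 and 0.939 TPM after vincristine against 0, 0 and 1.22 in saline (0.75 ± 0.36). The groups overlapped, and the number of reads behind such levels is unknown. Il1b was at 2.84, 2.76 and 0 TPM against 2.73, 3.87 and 2.99. Of 13 tested cytokine and chemokine genes, 8 had a higher mean, with a median of 0.05 that ran from −0.09 to 0.22 with 1 library left out. Tlr4, the receptor for bacterial endotoxin, was at 13.6, 13.8 and 12.2 TPM against 12, 8.05 and 9.87, with no overlap (0.38 ± 0.20). Of 17 Toll-like receptor and inflammasome genes, 8 had a higher mean, and the median was −0.01 (−0.07 to 0.10).

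The tubulin genes, whose products vincristine binds, differed little apart from Tubb1. Cells tune tubulin mRNA to the pool of free dimers, degrading it through the ribosome-bound factor TTC5 when dimers are in excess. Tuba1a, Tuba1b and Tuba1c, the abundant alpha tubulins, had higher means with no overlap. Tuba1a was at 1061, 1066 and 1127 TPM after vincristine against 1018, 964 and 1011 in saline, a log2 fold change of 0.12 ± 0.10. Tuba1b was at 0.11 ± 0.11 and Tuba1c at 0.11 ± 0.11. The 3 genes are close relatives on chromosome 15, reads may be shared between them, and they are not 3 separate observations. Their 95% intervals ran to 0.33 and held 0.

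Beta tubulins had lower means in 7 of 8 genes, with a median of −0.08 that ran from −0.15 to −0.01 with 1 library left out. Tubb3, the isotype of neurons, was at 316, 291 and 354 TPM after vincristine against 316, 381 and 316 in saline (−0.07, 95% interval −0.31 to 0.16). Tubb2a, another neuronal isotype, was at 577, 548 and 592 TPM against 546, 541 and 573 (0.05, 95% interval −0.15 to 0.25). Tubb5, expressed in most cells, was at −0.11 and Tubb6 at −0.07. Tuba8 was at 5.23, 6.25 and 4.53 TPM against 6.5, 6.76 and 6.25, which overlap in 1 library. Tuba3a, Tuba3b and Tubal3 were listed at 0 in all 30 libraries.

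**Figure D4:**
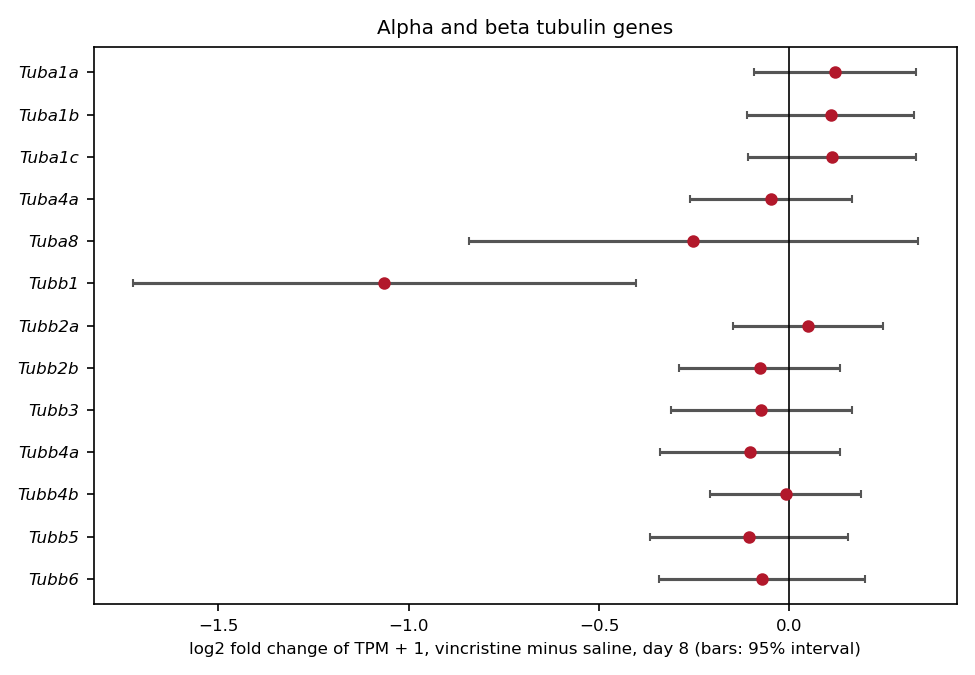
Log2 fold change of TPM + 1, vincristine minus saline on day 8, for the 13 alpha and beta tubulin genes that were tested, with bars for 95% intervals. All intervals hold 0 but that of Tubb1, which runs from −1.72 to −0.40.

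Genes of tubulin folding lay close to saline. Ttc5 was at 48.2, 50.4 and 56.4 TPM after vincristine against 51.8, 45.9 and 51.4 in saline (0.05 ± 0.09), and the 7 folding and autoregulation genes had a median of −0.01 with a range of −0.06 to 0.09. Vash2, which removes the last tyrosine of alpha tubulin, was at 3.38, 2.98 and 4.41 TPM against 4.79, 5.24 and 5.51 (−0.44 ± 0.17). It was the only one of 12 tubulin-modifying enzyme genes at an unadjusted p under 0.05, beside 3.44% of all tested genes. Of 25 microtubule-associated protein genes 18 had a lower mean (median −0.05), as had 15 of 16 axonal transport motor genes (median −0.06) and all 5 neurofilament and peripherin genes (median −0.11). Kif1a, a kinesin that carries synaptic vesicle precursors, was at 243, 225 and 293 TPM against 270, 297 and 250. Without vincristine library 2 the medians were 0.02 for microtubule-associated proteins, 0.01 for motors and −0.03 for neurofilaments and peripherin. Without vincristine library 3 they were −0.12, −0.13 and −0.20.

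No gene of the axon degeneration, nerve injury or BCL2 and caspase lists had an unadjusted p under 0.05, beside 3.44% of all tested genes. Of 16 axon degeneration genes, 8 had a higher and 8 a lower mean, and the median was 0.00. Nmnat1, which makes NAD in the nucleus, was at 12.4, 12.5 and 13.2 TPM against 10.6, 7.05 and 14.6 (0.27 ± 0.20). Of 18 tested nerve injury response genes, 12 had a lower mean (median −0.03, and −0.11 to 0.01 with 1 library left out). The largest was that of Npy, a neuropeptide induced in large neurons by axotomy, listed at 0 in all 3 vincristine libraries and at 5.82, 0 and 3.55 TPM in saline. Of 16 BCL2 family and caspase genes, 10 had a higher mean (median 0.03).

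The 4 ion channel lists held 10, 22, 14 and 17 tested genes. Of these, 1 gene had an unadjusted p under 0.05, beside 3.44% of all tested genes. Cacna1e, the pore subunit of R-type calcium channels (chromosome 1, 154266477 to 154760247), was at 33.4, 27.7 and 28.3 TPM after vincristine against 21.5, 20.05 and 20.5 in saline (0.50 ± 0.16, 95% interval 0.17 to 0.83). The saline libraries were among the lowest of the series, whose other libraries ran from 19 to 33.8 TPM, and against the other drugs Cacna1e was at 0.16. Kcnk13, a two-pore potassium channel outside these lists, was at 17.7, 20.1 and 20.9 TPM against 15.2, 14.7 and 15.1 (0.36 ± 0.10). Scn10a, the sodium channel Nav1.8 of nociceptors, was at 258, 240 and 286 TPM against 252, 298 and 259 (−0.05 ± 0.11). Medians were −0.03 for 10 sodium channel genes, 0.01 for 22 potassium channel genes, 0.02 for 14 calcium channel genes and 0.02 for 17 TRP, Piezo and HCN genes.

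Among neuron classes, 10 of 23 nociceptor genes had a higher mean (median −0.02, and −0.11 to 0.03 with 1 library left out), and 7 of 13 genes of large-diameter neurons did (median 0.00). Nppb, the natriuretic peptide of itch neurons, was at 23.4, 23.9 and 21.2 TPM against 14.7, 19.7 and 19.2 (0.35 ± 0.20). Runx3, a transcription factor of proprioceptors, was at 12.7, 15.2 and 11.2 TPM against 17.2, 16.5 and 17.6 (−0.38 ± 0.22). Neither group pair overlapped, and both intervals hold 0.

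Immediate early genes, which neurons and other cells induce within minutes of a stimulus, had lower means against both references of day 8. Of 12 tested genes, 11 had a lower mean against saline (median −0.23) and 11 against the other drugs (median −0.25), and with 1 library left out the medians stayed below 0. Against saline 1 gene was lower at an unadjusted p under 0.05 (1.41% of all genes), and against the other drugs 1 (0.739%). Against saline it was 0 without saline library 2 (1.88% of all genes) or without vincristine library 3 (1.73%). Egr1, a zinc finger transcription factor, was at 14.2, 18.2 and 17.8 TPM after vincristine against 19.6, 26.8 and 26.5 in saline (−0.51 ± 0.24). Egr3, its relative, was at 7.33, 10.9 and 10.6 TPM against 12, 14 and 12.4, and averaged 16.7 in saline of day 2. Against the other drugs Egr3 was at −0.54 and against saline of day 2 at −0.76. Vincristine library 1, at 7.33 TPM, was the lowest library of the series for Egr3. Nr4a2, a nuclear receptor, had a higher mean, at 20.4, 34.8 and 33.2 TPM against 29.8, 19.2 and 19.1.

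Stress and hormone targets gave single genes. Mt2, a metallothionein that binds zinc and is induced by glucocorticoids and metals, was at 71.6, 67.8 and 52.9 TPM after vincristine against 40.2, 29.7 and 46.5 in saline (0.72 ± 0.25), and against the other drugs it was at 0.59. Mt1, its neighbour, was at 89.9, 81.7 and 91.3 TPM against 80.6, 62.1 and 82.5. Of 17 glucocorticoid target genes 12 had a higher mean, with a median of 0.11 that was 0.05 without vincristine library 3 and 0.24 without saline library 3. Trib3, a pseudokinase of the integrated stress response, was at 9.61, 6.92 and 8.71 TPM against 6.13, 6.15 and 5.36 (0.44 ± 0.19), and the 18 genes of that list had a median of 0.04. Hmox1, heme oxygenase, was at 42.0, 45.1 and 45.8 TPM against 44.8, 30.5 and 35.4 (0.27 ± 0.12). Clock, a core circadian transcription factor, was at 74.6, 64.2 and 66.5 TPM against 65.9, 53.3 and 55.6 (0.23 ± 0.10). The hour of perfusion is not given in the sources used here.

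Transporters that carry vincristine out of cells were measured too. Abcb1a, the P-glycoprotein of blood vessels, was at 31.4, 43.0 and 39.5 TPM after vincristine against 34.8, 31.1 and 35.4 in saline (0.15 ± 0.15), and Abcc10 was at 17.2, 19.9 and 22.8 TPM against 18.3, 14.2 and 17.2 (0.25 ± 0.12). Both are in a list of 10 genes of vincristine transport and metabolism, of which 6 were tested, 4 with a higher mean.

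Several vessel genes were lower in mean. Plvap, the diaphragm protein of fenestrated capillaries, was at 28, 35.1 and 36.8 TPM against 39.9, 38.8 and 56.2 in saline (−0.41 ± 0.16), and no other library of the series reached the saline values of day 8. Myh11, smooth muscle myosin, was at 11.3, 11.8 and 10.1 TPM against 15, 14.9 and 24.3 (−0.63 ± 0.20), and 8 of 11 mural cell genes had a lower mean (median −0.23, and −0.06 without saline library 3). Of 16 endothelial genes 9 had a higher mean, with a median of 0.03 (−0.13 to 0.08 with 1 library left out).

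Among the protein-coding genes of smallest p, Pramel12, a member of a gene family expressed in germ cells, was at 20.6, 23.7 and 23.9 TPM after vincristine against 17.4, 12.9 and 15.8 in saline (0.54 ± 0.12, limma adjusted p = 0.536). Saline of day 2 averaged 21 TPM. Dynlt2a1, a dynein light chain gene, was at 1.87, 1.83 and 1.34 TPM against 0.528, 0.390 and 0.715 (0.79 ± 0.24), and against the other drugs it was at 0.99 (limma adjusted p = 0.392). Npffr2, a receptor for neuropeptide FF, was at 2.87, 1.79 and 2.91 TPM against 0.693, 0 and 1.82. Gas5, a long noncoding RNA that hosts small nucleolar RNAs, was chosen after its values were seen. It was at 52.0, 53.9 and 48.5 TPM after vincristine against 70.4, 65.8 and 67.6 in saline (−0.39 ± 0.10), with saline of day 2 at 53.7 TPM. For Pramel12 and Gas5, vincristine lay near saline of day 2, and saline of day 8 stood apart.

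Tissue that dissection or perfusion can leave in a ganglion varied between libraries, and its part in the results above was not tested. The summed TPM of 19 skeletal muscle genes was 906, 1260 and 485 in vincristine and 67.8, 763 and 452 in saline. All 19 had a higher mean with vincristine, with a median of 1.55 that was 0.47 without saline library 1. Cox8b, a respiratory chain subunit of muscle and brown fat, was at 13.3, 7.64 and 12.1 TPM against 1.92, 0 and 0, and Mettl21c, a muscle methyltransferase, was at 2.24, 3.18 and 1.48 TPM and listed at 0 in all 3 saline libraries. Summed TPM of 11 red blood cell genes was 77.4, 144 and 103 in vincristine and 237, 183 and 0.818 in saline, so saline library 3 held almost none of their RNA. Without saline library 3 the red blood cell median went from 0.54 to −0.96. Summed TPM of the spinal cord list was 42.3, 113 and 91.5 in vincristine and 109, 42.7 and 52.8 in saline of day 8. Against saline of day 2 all 12 tested spinal cord genes had a lower mean, 6 with an unadjusted p under 0.05 (0.971% of all genes lower). Their median was −1.13, so that reference differed from vincristine in these genes too.

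Myelin and division genes also turned on single libraries. Of 18 genes of myelinating Schwann cells 15 had a higher mean with vincristine (median 0.22), and the median was 0.01 without saline library 3 and 0.41 without saline library 1. Of 33 cell division genes 27 had a lower mean (median −0.20), and the median was 0.03 without saline library 1. Ube2c, a ubiquitin-conjugating enzyme of mitosis, was at 2.23, 4.13 and 0 TPM against 9.02, 7.11 and 4.21 (−1.56 ± 0.58), with saline of day 2 at 1.74 TPM.

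**Figure D5:**
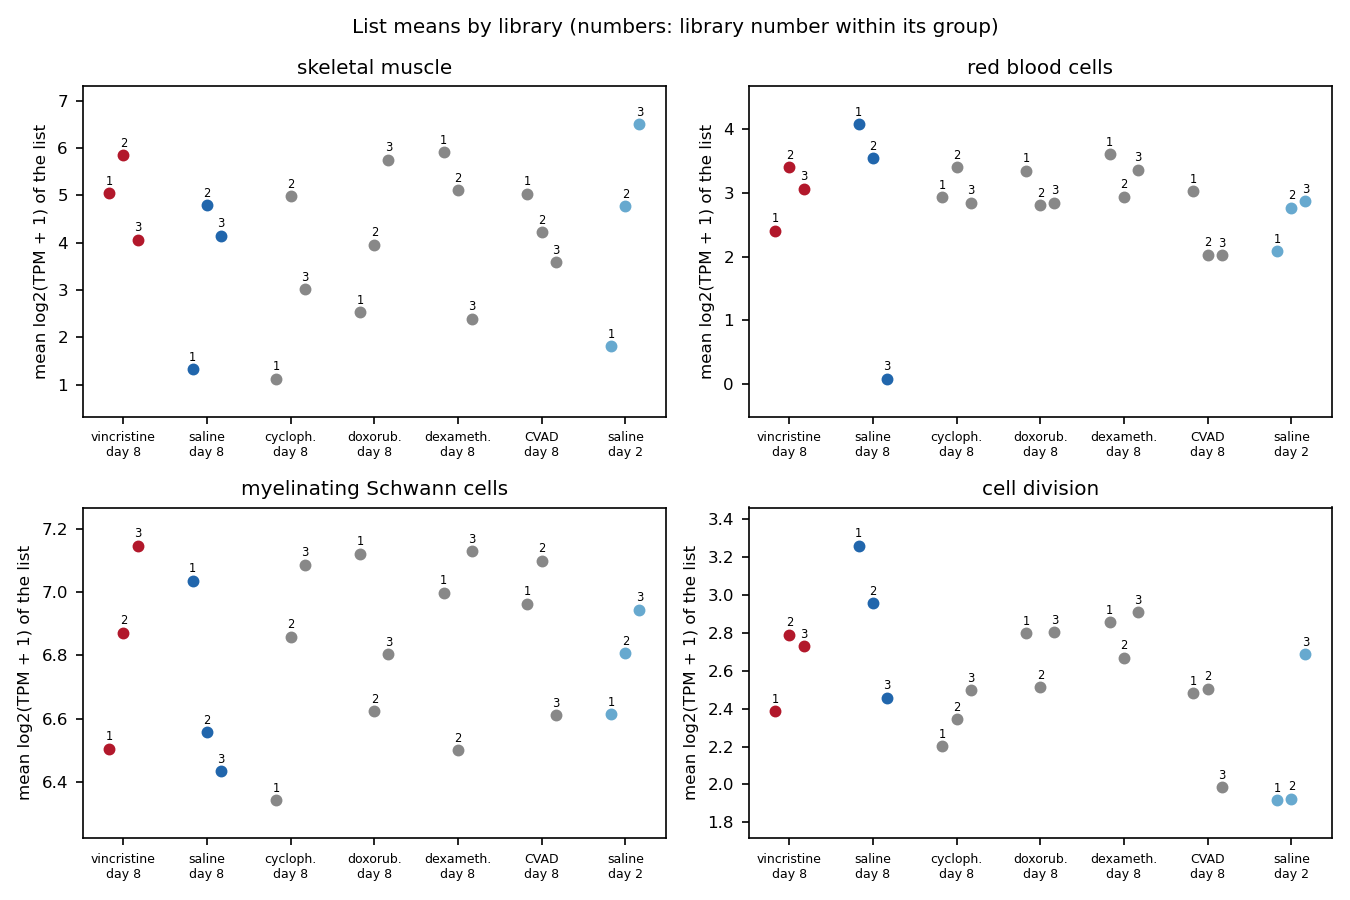
Mean log2(TPM + 1) of 4 gene lists in 21 libraries, with 1 point a library and its number within the group. Saline library 3 of day 8 lies at 0.08 for red blood cell genes, far below the others, and saline library 1 of day 8 lies at 1.33 for skeletal muscle genes and highest for cell division genes.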

How the data were processed

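Total RNA (60 to 80 ng) of ganglia L3 to L5 of both sides was depleted of ribosomal RNA and made into stranded libraries, per the labels' protocols. The deposited table holds TPM per gene, with StringTie 2.2.1, STAR 2.7.10b and FastQC 0.12.1 among the tools listed in the submitters' processing notes, which give both GRCm39 and mm10 as builds and no role for either. Gene coordinates are those of the table, and promoters are RefSeq's for GRCm38.p6, a build whose positions differ from the table's. Read numbers are not given, so the depth is unknown and no counting error was computed.

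The 6 libraries compared are 2 of 10 groups of 3. Genes with at least 1 TPM in at least 3 of 30 libraries were tested as log2(TPM + 1) in limma 3.58.1 (R 4.3.3), with 1 mean per group over 30 libraries, variances moderated with a trend on mean level, 2-sided p-values and Benjamini-Hochberg adjustment over 25434 genes. Contrasts were vincristine against saline of day 8, against the mean of the other 3 single drugs of day 8, and, added after the data were seen, against saline of day 2. An exact permutation test of 3 against 3 cannot go below p = 0.1.

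Genes were named by a rule: the 10 of smallest p and 5 of largest fold in each direction among named protein-coding genes (the text gives a part), called genes, all alpha and beta tubulins and the 4 members of smallest p of each list. Gas5, the platelet list and other list members were picked with their values in view. The members and lists were chosen with earlier results of these data known. Lists are described by counts and medians, with no test. Each symbol was kept at its most abundant entry. Alternatives were a pseudocount of 0.1, no filter, no trend, median-ratio scaling, library quality weights, protein-coding genes alone, day 8 alone, only the groups compared, and each library left out. The fit was also run on simulated data, and the share of changed genes it recovered is not given here. Figures used matplotlib 3.10.9.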

Additional observations from a re-analysis of the deposited data

How the results depend on the processing

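Against saline, 0 genes passed, and 0 passed with a pseudocount of 0.1, median-ratio scaling, quality weights, protein-coding genes alone, day 8 alone or only the groups compared. There were 2 with no filter, 1 with no trend, 1 against saline of day 2, and 0 to 7 with 1 library left out (7 without saline library 3, 2 without saline library 2 or vincristine library 2). Against the other single drugs 1 gene passed, 2 with no filter or no trend, and 0 with day 8 alone, only the groups compared, protein-coding genes alone or a pseudocount of 0.1. With 1 library left out it was 0 to 1. Against saline of day 2 the sign turned for 24 of 71 genes followed: Clec1b 0.18, Alox12 0.078, Tubb1 0.16, Alox5 0.082, Ube2c 0.12, Ppbp 0.62, Plac8 0.51, Tuba4a 0.069, Tuba8 0.036, Tubb2b 0.085, Tubb3 0.023, Tubb4a 0.028, Tubb4b 0.13, Tubb5 0.079, Tubb6 0.010, Mpo 0.21, Ctsg 0.23, Prtn3 0.26, Camp 0.59, Cd177 0.23, Ngp 0.32, Klrd1 0.43, Adipoq 0.57 and Plvap 0.32. The cause was not tested. With 1 library left out, Tuba4a ran from −0.11 to 0.013, Tubb3 from −0.15 to 0.017, Tubb4b from −0.060 to 0.046 and Tubb6 from −0.20 to 0.030. No other followed gene turned in any other setting. Of 50 list medians, 4 moved by more than 1 SD in some setting. No paired analysis was possible because the labels carry no replicate numbers that tie libraries of different groups. Unknown depth limits what can be said of genes near 1 TPM.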

Other observations

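Adipocyte and skeletal genes were not described above. Of 9 tested adipocyte genes, 7 had a lower mean with vincristine than with saline (median −0.39, which was −0.17 without saline library 3 and −0.64 without saline library 1). Adipoq, the adipocyte hormone adiponectin, was at 11.4, 4.74 and 7.69 TPM after vincristine against 12.2, 13.2 and 17.9 in saline. Ucp1, the uncoupling protein of brown fat, was at 1.52, 0.648 and 14.6 TPM after vincristine against 0.636, 0 and 0 in saline, and its level in vincristine library 3 was the highest of the series. Of 13 bone and cartilage genes 9 had a lower mean (median −0.13, which was −0.01 without vincristine library 2), and Acan, the cartilage proteoglycan aggrecan, was at 8.18, 3.49 and 0.512 TPM after vincristine against 1.23, 2.44 and 1.25 in saline.

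Of 13 fibroblast and matrix genes, 10 had a higher mean with vincristine (median 0.13, which was 0.04 without saline library 2 and 0.24 without saline library 1). Pdgfra, a receptor for platelet-derived growth factor that marks fibroblasts, was at 37.0, 52.0 and 51.8 TPM against 43.6, 29.6 and 38.4 in saline. Of 10 satellite glia genes, 9 had a higher mean (median 0.04), and Hes1, a target of Notch signalling, was at 26, 31.7 and 38.3 TPM against 24.5, 24 and 25 (0.35 ± 0.16). Vincristine library 1 lay below the other vincristine libraries for Pdgfra and Hes1. Of 19 cholesterol synthesis genes, 17 had a lower mean (median −0.05, which ran from −0.16 to 0.00 with 1 library left out).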
